A study of Mus musculus with 67 samples.

Results

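The cytoskeleton and the motors that run on it were followed as a group of 51 genes: tubulins, actins and alpha-actinins, actin-related proteins and subunits of the Arp2/3 complex, actin-capping and WIP-family proteins, tropomyosins, myosins, kinesins with their light chains, and dynein with dynactin. They were chosen by the start of the gene symbol among spots that carry a single symbol, and their 72 spots lie among 8448 spots and 3905 genes with a single symbol on the array. Tubb3 and Stmn3, used as neuronal markers, were left out, and no other stathmin was found among these spots. Spots of a gene were averaged. A gene was tested where its mean over the arrays was above 0 on the scale described below, which 24 of the 51 members and 1654 of all genes passed. The other 27 members are dim spots and are described apart.

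The samples were cerebral cortices of 67 C57BL/6 mice, each hybridised to a filter array of its own. Mice with free access to feed (ad libitum, AL) were taken at 1 month (10 mice of 17 to 44 days), 6 months (10 mice of 169 to 194 days), 16 months (10 mice of 476 to 499 days) and 24 months (10 mice of 704 to 743 days). Mice on caloric restriction (CR), moved in steps as young adults to a smaller ration of fortified feed, were taken at 6 months (9 mice of 174 to 194 days), 16 months (10 mice of 472 to 499 days) and 24 months (8 mice of 673 to 743 days). Groups held 5 males and 5 females, except CR mice of 6 months (4 males) and of 24 months (3 males). These 3 CR males of 24 months were all 673 days old, younger than every AL mouse of 24 months. In males of 24 months diet and age in days thus cannot be told apart. There was no mouse on restriction at 1 month, so that diet could be compared only among adults.

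Each value is a z-score, the distance of a spot from the mean of its array in units of the SD of that array, and every difference below is a difference in z, which has no fold. A z-score ranks a spot within an array and does not allow the level of a gene to be set against that of another. Whole cortex was used, so that fewer cells of a type and less RNA per cell cannot be told apart. Of the lists of cell type markers, 4 neuronal, 3 astrocyte and 2 oligodendrocyte genes were on the array under a single symbol and each had a mean z above 0. No microglial, blood or skeletal muscle marker of the lists was found there. Precision is limited by how many arrays a group holds.

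Microtubules are built of alpha- and beta-tubulin and serve as the tracks of axonal transport, along which kinesins carry cargo mostly toward the axon end and dynein, with its partner complex dynactin, carries it back. Actin filaments shape dendritic spines, growth cones and the rim of the cell. The Arp2/3 complex starts new branches on them under the control of WASP-family proteins, capping proteins close their growing ends, tropomyosins coat them and myosins pull on them. Sequences of tubulin and actin genes are close to each other, so that a cDNA spot of these families can take up transcripts of a relative.

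No member passed the test at an adjusted p under 0.05 in any comparison of age, diet or sex, or in any interaction (limma, Benjamini-Hochberg over the 1654 genes). Across the 10 comparisons the difference of a tested member was at most 0.214 z, and the median over the members lay between -0.0325 and 0.00762 z. The 95% confidence intervals of single members reached from -0.351 to 0.310 z. The median half-width of these intervals was between 0.0655 z, for restriction over 3 ages and for sex, and 0.118 z, for restriction at 24 months. The members' residual SD, the spread between mice of a group once the array set described below is taken out, had a median of 0.121 z (0.0738 for Wipf2 to 0.212 for Myh9), beside 0.132 z over all genes tested. Wipf2 is a mean of 2 spots and Myh9 rests on 1, so that the number of spots also enters this range.

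Taken over the tested members, the number of the array went with larger differences than age, diet or sex did. Arrays numbered 1 to 45 and 46 to 67 formed sets that differed in many spots, and each set held mice of every age and diet. The cut was chosen from earlier results of these data and is not given by the sample labels. Among the tested members 12 were higher and 12 were lower in the later set, from -1.07 z for Actn3, an alpha-actinin best known from fast skeletal muscle fibres, to 0.630 z for Myo1c, a membrane-linked class I myosin. The median size of the shift was 0.277 z, against 0.240 z over all genes tested. For Kif18a (-0.0284 z) and Tubb2a-ps2 (-0.0252 z) the shift was smaller than their largest differences between groups.

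The shift went with the running number of the spot. Spots were put in 22 classes by the remainder of this number divided by 22. The shift of the 72 member spots had a Pearson's r of 0.793 with the mean shift of their class, as a description across spots of the same arrays. Whether a class is a place on the filter was not tested. The class with the largest shift changed by -1.0 z on average over its 384 spots, and its 3 member spots, those of Actn3 (-1.07 z), Klc1 (-0.819 z) and Arpc5 (-1.01 z), all moved with it. The other spot of Arpc5, in another class, moved by 0.496 z. The set was a term of the fit in every comparison that follows, and values within each set are given beside the members that stood out. Group means and ranges below pool both sets unless a set is named. The later set held 2 of 10 AL arrays at 1 month and 4 of 10 at 24 months, so that part of the shift enters such means.

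**Figure D1:**
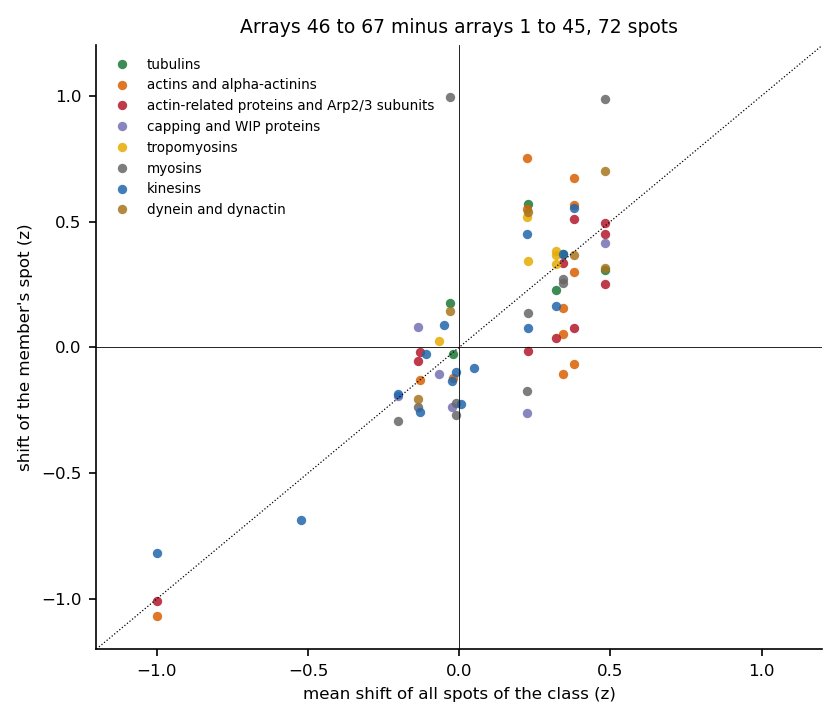
Each point is 1 of the 72 member spots, with the mean of arrays 46 to 67 minus arrays 1 to 45 (z, groups of age, diet and sex taken out) on the vertical axis and the mean of the same shift over all spots of its class on the horizontal axis. Colours mark the gene families and the dotted line marks equal shifts. Most points lie along the line, and 3 spots, at -1.07, -1.01 and -0.819 z, lie lowest.

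The tubulins formed the tracks of the system and had 5 members, 4 of them tested. Tuba1b, an alpha-tubulin, had a mean of 0.397 z ± 0.119 (SD, n = 10) at 1 month, 0.423 ± 0.210 (SD, n = 10) at 6 months, 0.458 ± 0.155 (SD, n = 10) at 16 months and 0.412 ± 0.271 (SD, n = 10) at 24 months in AL mice. Its AL groups overlapped at all ages, and from 6 to 24 months the difference was -0.0338 z with an interval from -0.171 to 0.103. Tubb5, a beta-tubulin measured by 2 spots, had means of 1.25, 1.26, 1.26 and 1.26 z at the 4 ages, in which the sets have unequal shares and the later set lay 0.440 z higher. With the set in the fit Tubb5 differed by -0.0626 z from 1 month to adult (-0.126 to 0.00129), -0.0425 z from 6 to 16 months and 0.0005 z from 16 to 24 months (-0.0772 to 0.0782). The spots of Tubb5 moved apart between mice all the same, with a correlation of 0.00836 between their residuals over the 67 arrays.

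Tubb2a-ps2, named as a pseudogene of the beta-tubulin Tubb2a and not to be told from it by hybridisation, gave the lowest p of the family. In AL mice its lowest, median and highest values were 0.640, 0.785 and 0.880 z at 6 months, 0.580, 0.715 and 0.960 z at 16 months and 0.270, 0.610 and 0.830 z at 24 months. The groups overlapped, and the lowest of the old mice was the array that stands apart from the rest, number 67. The difference was -0.141 ± 0.0575 z (SE) from 16 to 24 months (unadjusted p = 0.0171, adjusted p = 0.275, limma) and -0.146 ± 0.0576 z from 6 to 24 months (unadjusted p = 0.0135, adjusted p = 0.573). Within arrays 1 to 45 these were -0.103 and -0.0537 z, and within arrays 46 to 67 they were -0.198 and -0.310 z. Without array 67 they came to -0.104 z (unadjusted p = 0.0694) and -0.111 z (unadjusted p = 0.0528). Both use the same 24-month arrays. Tubb6, another beta-tubulin, differed by -0.102 ± 0.0498 z from 1 to 6 months and by 0.106 ± 0.0512 z with restriction at 6 months (unadjusted p = 0.0448 and 0.0420, limma), comparisons that share the AL mice of 6 months.

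Among actins and alpha-actinins, 2 of 4 members were tested. Actb, the beta-actin often used as a reference gene, was covered by 7 spots whose means ran from -0.182 to 2.15 z, and the mean of the spots was 0.834 ± 0.174 z (SD, n = 10) in AL mice of 6 months and 0.931 ± 0.212 z (SD, n = 10) at 24 months. In CR mice of 24 months it was 0.836 ± 0.196 z (SD, n = 8). Restriction at 24 months gave a difference of -0.0892 ± 0.0487 z (unadjusted p = 0.0716, adjusted p = 0.483, limma), or -0.0559 z without replicate 1 of the CR males, with intervals that also held 0 at the other ages. Actn3 had a mean of 0.0237 z, just above the limit for testing. Its interval held 0 in each of the 10 comparisons, with -0.0502 z (-0.137 to 0.0372) for restriction over the 3 adult ages.

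The Arp2/3 subunits and actin-related proteins, 4 of 8 members tested, held the members with the smallest p at 24 months. Arpc1a encodes a subunit of the Arp2/3 complex that contacts the WASP-family activators. In arrays 1 to 45 the 6 AL mice of 24 months had values from 0.240 to 0.36 z (median 0.355), and the 5 CR mice had -0.0500, -0.0200, 0.17, 0.180 and 0.290 z. In arrays 46 to 67 the 4 AL mice had 0.690, 0.770, 0.940 and 1.11 z and the 3 CR mice 0.510, 0.680 and 0.720 z. Old restricted mice thus lay lower on average in both sets, and the groups overlapped in each. The set shift of Arpc1a, 0.511 z, was larger than any of its differences between groups.

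The fitted difference of Arpc1a with restriction at 24 months was -0.214 ± 0.0583 z (interval -0.330 to -0.0970, unadjusted p = 0.000521, adjusted p = 0.108, limma), the largest among the 24 tested members. It was -0.208 ± 0.0724 z within arrays 1 to 45 and -0.220 ± 0.109 z within arrays 46 to 67, and -0.165 z in males and -0.262 z in females. The CR males of this age were younger in days than all AL mice of 24 months. With AL mice alone, Arpc1a differed by 0.169 ± 0.0540 z from 16 to 24 months (unadjusted p = 0.00267, adjusted p = 0.267) and by 0.167 ± 0.0541 z from 6 to 24 months (unadjusted p = 0.00304, adjusted p = 0.573). All 3 comparisons rest on the same 10 AL arrays of 24 months, and a high value there gives opposite signs to age and to restriction. The highest of these values was that of array 67. Without that array Arpc1a came to -0.181 z for restriction (adjusted p = 0.335), 0.136 z from 16 months (adjusted p = 0.522) and 0.135 z from 6 months (adjusted p = 0.996). At 6 and 16 months restriction gave intervals that held 0 for Arpc1a, with -0.0640 z (-0.172 to 0.0440) at 16 months. The mean difference of all spots of its class was -0.0581 z with restriction at 24 months and 0.0469 z from 16 to 24 months, and with spot classes centred on each array Arpc1a differed by -0.155 z (adjusted p = 0.191) and 0.122 z (adjusted p = 0.231).

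Arpc4, a core subunit of the same complex with 2 spots, went the other way. Its lowest, median and highest values at 24 months were 0.10, 0.318 and 0.610 z in AL mice and 0.200, 0.455 and 0.750 z in CR mice, with wide overlap. The difference was 0.162 ± 0.0531 z (unadjusted p = 0.00339, adjusted p = 0.188, limma), with 0.187 z within arrays 1 to 45 and 0.119 z within arrays 46 to 67, 0.246 z in males and 0.0780 z in females. Here too the CR males were younger in days than the AL mice. Single arrays moved the difference of Arpc4. It was 0.0881 z without replicate 2 of the CR males of 24 months, where the adjusted p of 0.631 (limma) was the highest over the arrays left out. Without replicate 1 of these males it was 0.227 z. Both spots were higher in restricted mice, by 0.213 z and 0.111 z. From 16 to 24 months Arpc4 differed by -0.0940 z (unadjusted p = 0.0604). Arpc1a and Arpc4 thus had differences of opposite sign, neither past the adjusted threshold. Arpc5, the third subunit tested, differed by at most its error in both comparisons, with -0.0125 z (-0.110 to 0.0850) from 16 to 24 months. Actr8, a nuclear actin-related protein of a chromatin-remodelling complex that the symbol rule takes in, had 0.00300 z there (-0.121 to 0.127).

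**Figure D2:**
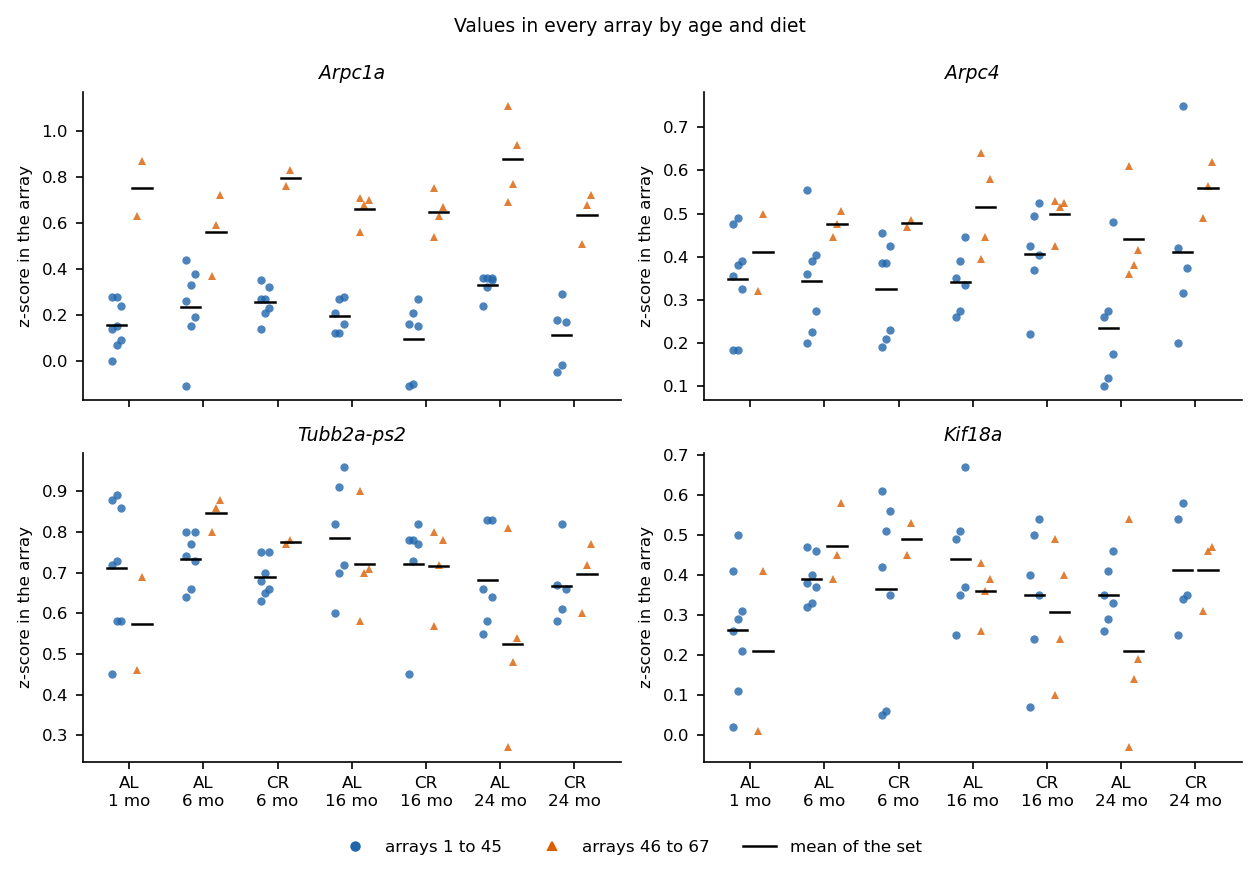
z-scores of Arpc1a, Arpc4, Tubb2a-ps2 and Kif18a in every array (vertical axis) by age and diet (horizontal axis), with circles for arrays 1 to 45, triangles for arrays 46 to 67 and a bar for the mean of each set. The later set of Arpc1a lies above the earlier one in all 7 classes, and in both sets the AL mice of 24 months lie above the CR mice on average.

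Of the capping and WIP proteins, which close filament ends and bind WASP, 2 of 4 members were tested, both of the WIP family. The only capping protein, Capza2, was among the dim members. Wipf1 had a lowest, median and highest value of 0.405, 0.718 and 0.835 z at 1 month and 0.650, 0.812 and 0.895 z at 6 months in AL mice, and 0.390, 0.760 and 0.840 z in CR mice of 6 months. It differed by 0.117 ± 0.0462 z from 1 to 6 months (unadjusted p = 0.0138, adjusted p = 0.999, limma) and by -0.103 ± 0.0476 z with restriction at 6 months (unadjusted p = 0.0340, adjusted p = 0.993), both against the same AL mice. A single spot carried these values: it differed by 0.222 z and -0.166 z, while the other spot of Wipf1 differed by 0.0118 z and -0.0408 z. Within arrays 46 to 67 the difference from 1 to 6 months was -0.00125 z, with 2 and 3 mice. The mean of the 2 spots of Wipf2 had the smallest residual SD of any tested member. The spots alone had residual SDs of 0.108 and 0.129 z, with a correlation of -0.231 between their residuals, so that averaging lowered the spread. Differences of Wipf2 lay between -0.0689 z with restriction at 6 months and 0.0377 z from 1 to 6 months. Its spots split at 24 months, where restriction gave 0.155 z in 1 spot and -0.179 z in the other.

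Tropomyosins had 4 members, of which Tpm2 was tested. Its AL means were 1.08, 1.10, 1.16 and 1.23 z at the 4 ages, with the sets in unequal shares and the later set 0.518 z higher. With the set in the fit Tpm2 differed by -0.0388 z from 1 to 6 months. The difference from 6 to 24 months was 0.0802 ± 0.0517 z (-0.0233 to 0.184). Within arrays 1 to 45 this difference was 0.0329 z, and without array 67 it was 0.0496 z.

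Myosins had 8 members by symbol, 4 of them tested. Mylk, a myosin light chain kinase that the symbol rule takes in, was among the dim ones. Myo1e, a membrane-linked class I myosin, had means of 1.36 ± 0.0814 z (SD, n = 10) in AL and 1.25 ± 0.187 z (SD, n = 9) in CR mice of 6 months and differed by -0.131 ± 0.0626 z (unadjusted p = 0.0402, adjusted p = 0.993, limma). Without replicate 1 of the CR males of 6 months the difference was -0.0708 z. Over the 3 adult ages restriction gave -0.149 ± 0.0532 z in males and 0.0637 ± 0.0496 z in females, and the difference between the sexes of 0.212 z had an unadjusted p of 0.00484 and an adjusted p of 0.985. The lowest AL female of 24 months, at 0.640 z, was again array 67. Myo1d, of the same class, differed by 0.102 z from 1 to 6 months, -0.0996 z from 6 to 16 months and 0.104 z from 16 to 24 months, each with an interval that held 0. Myh9, the heavy chain of non-muscle myosin IIA, had the widest spread and differed by -0.166 ± 0.0929 z with restriction at 6 months (-0.351 to 0.0201).

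Kinesins and their light chains were the largest family, with 12 members and 5 tested. Kif18a, a mitotic motor that shortens microtubules, had a lowest, median and highest value of 0.0100, 0.275 and 0.50 z at 1 month and 0.320, 0.395 and 0.580 z at 6 months in AL mice. The difference of 0.165 ± 0.0632 z (0.0385 to 0.291) had the smallest p of the members in that comparison (unadjusted p = 0.0114, adjusted p = 0.999, limma), with 0.126 z within arrays 1 to 45 and 0.242 z within arrays 46 to 67. From 6 to 24 months Kif18a differed by -0.118 z (-0.244 to 0.00814). Of the 4 markers of dividing cells tested, 0 had an unadjusted p under 0.05 in these 2 comparisons (limma), and their part in the values of Kif18a was not tested.

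Among the motors of axonal transport, Kif5b and Klc1 differed little from 6 to 24 months. Kif5b, the heavy chain of conventional kinesin, had AL means of 0.758, 0.796, 0.876 and 0.843 z at the 4 ages, with the later set 0.502 z higher. With the set in the fit Kif5b differed by -0.00267 z from 6 to 24 months (-0.0888 to 0.0835). Its partner Klc1, the kinesin light chain, differed by 0.00887 z (-0.0921 to 0.110). With restriction at 16 months both lay lower, Kif5b by -0.0780 ± 0.0430 z and Klc1 by -0.0920 ± 0.0504 z (unadjusted p = 0.0747 and 0.0728, limma). The difference of Klc1 was 0.0217 z within arrays 1 to 45 and -0.262 z within arrays 46 to 67, and it was -0.0527 z without replicate 5 of the CR males of 16 months. Kif9, linked to motile cilia, had a mean of 0.0136 z, just above the limit for testing. It differed by -0.119 z with restriction at 24 months (-0.246 to 0.00941). Kif16b, a motor of early endosomes, differed by 0.102 z with restriction at 16 months (-0.0464 to 0.250). Of this, 0.0109 z was left without replicate 1 of the AL males of 16 months. From 16 to 24 months all 5 tested kinesin genes had differences below 0, from -0.114 to -0.0170 z, while 45.8% of all genes tested lay above 0. None of the 5 had an unadjusted p under 0.05 (limma). Kif18a was below 0 within both sets (-0.0900 and -0.150 z), and the other kinesin genes changed sign between the sets.

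Dynein and dynactin had 6 members, 2 of them tested. Dynll1, a dynein light chain that also binds many other proteins, had AL means of 0.172, 0.131, 0.228 and 0.204 z at the 4 ages with SDs of 0.213, 0.203, 0.245 and 0.246 (n = 10 each). Its intervals held 0 in each of the 10 comparisons, the largest difference between ages being -0.0777 z from 1 to 6 months (-0.205 to 0.0501). Females minus males gave 0.0586 z, made of -0.00278 z within arrays 1 to 45 and 0.143 z within arrays 46 to 67. Dctn5, a dynactin subunit, differed by 0.119 ± 0.0772 z from 16 to 24 months (-0.0354 to 0.273).

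Counts over the members are read against those over all genes. From 1 to 6 months 0 of 24 members passed the adjusted threshold (0% of all genes) and 3 had an unadjusted p under 0.05 in limma (4.29% of all genes), namely Kif18a, Wipf1 and Tubb6. From 1 month to the mean of the AL adults the counts were 0 (0% of genes) and 2 (3.63% of genes), Kif18a with 0.124 z and Wipf1 with 0.0840 z, and without array 67 there were 4. Wipf1 was at 0.0498 z without replicate 1 of the AL males of 1 month. Tubb5, Tubb6 and Kif9 followed with -0.0626, -0.0799 and 0.0790 z. From 6 to 16 months there were 0 (0% of genes) and 0 (2.72% of genes), the members with the smallest p being Myo1d, Wipf1 (-0.0554 z), Tubb5 (-0.0425 z), Tubb6 (0.0521 z) and Dynll1 (0.0603 z). These shares rest on so few members that 1 gene more or less changes them.

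From 16 to 24 months, the step with the most genes under an unadjusted p of 0.05, 0 members passed the adjusted threshold (0% of genes) and 2 of 24 were under the unadjusted one (14.0% of genes), Arpc1a and Tubb2a-ps2. From 6 to 24 months the counts were again 0 (0% of genes) and 2 (6.41% of genes), the same pair. Without array 67 only Arpc1a was left in both, while the genes under an unadjusted p of 0.05 went from 232 to 136 and from 106 to 54. At the step from 16 to 24 months the 4 neuronal markers differed by -0.213 z (Stmn3), -0.125 z (Snap25), -0.118 z (Uchl1) and 0.00400 z (Tubb3). The astrocyte markers differed by 0.124 z (Glul), -0.0810 z (Aldoc) and -0.00700 z (Cst3), and those of oligodendrocytes by 0.138 z (Fth1) and -0.0310 z (Car2). Stmn3, Uchl1, Glul and Fth1 had an unadjusted p under 0.05, and no list moved in 1 direction as a whole. The part of cell types in the members' values was not tested.

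Restriction at 6 months gave 0 members past the adjusted threshold (0% of genes) and 3 past the unadjusted one (3.93% of genes), Wipf1, Myo1e and Tubb6. At 16 months there were 0 (0% of genes) and 0 (1.09% of genes), with 8 of 24 differences above 0, beside 48.4% of all genes tested and 15 of the 27 dim members. At 24 months there were 0 (0.121% of genes) and 2 (10.7% of genes), Arpc1a and Arpc4. There the neuronal markers differed by 0.186 z (Stmn3), 0.128 z (Snap25), 0.0222 z (Uchl1) and -0.0419 z (Tubb3) and the astrocyte markers by -0.146 z (Glul), -0.0687 z (Cst3) and 0.00460 z (Aldoc). Those of oligodendrocytes differed by -0.104 z (Fth1) and 0.0466 z (Car2). Of these Stmn3 and Glul had an unadjusted p under 0.05, and their bearing on the members was not tested. Over the 3 adult ages together the counts were 0 (0% of genes) and 1 (4.78% of genes), Arpc1a with -0.0654 ± 0.0324 z, and without array 67 or without array 27 the count was 0. The members next in order were Arpc4 (0.0575 z), Kif16b (0.0726 z), Myo1d (-0.0535 z) and Wipf2 (-0.0340 z).

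Differences between the sexes were small. Females minus males gave 0 members past the adjusted threshold (0% of genes) and 0 past the unadjusted one (9.98% of genes), with differences from -0.0611 z for Myo1d to 0.0586 z for Dynll1 and intervals from -0.151 to 0.135 z. Wipf1, Kif5b and Wipf2 had -0.0509, 0.0437 and 0.0376 z. All 4 tested tubulins had differences above 0, of at most 0.0409 z, beside 49.2% of all genes tested. The interaction of age and diet among adults gave 0 members (0% of genes) past the adjusted and 2 (6.17% of genes) past the unadjusted threshold of the moderated F-test, Arpc1a with an adjusted p of 0.478 and Arpc4 with 0.763. Age by sex gave 0 (0% of genes) and 0 (1.75% of genes). Diet by sex gave 0 (0% of genes) and 1 (4.66% of genes), which was Myo1e.

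**Figure D3:**
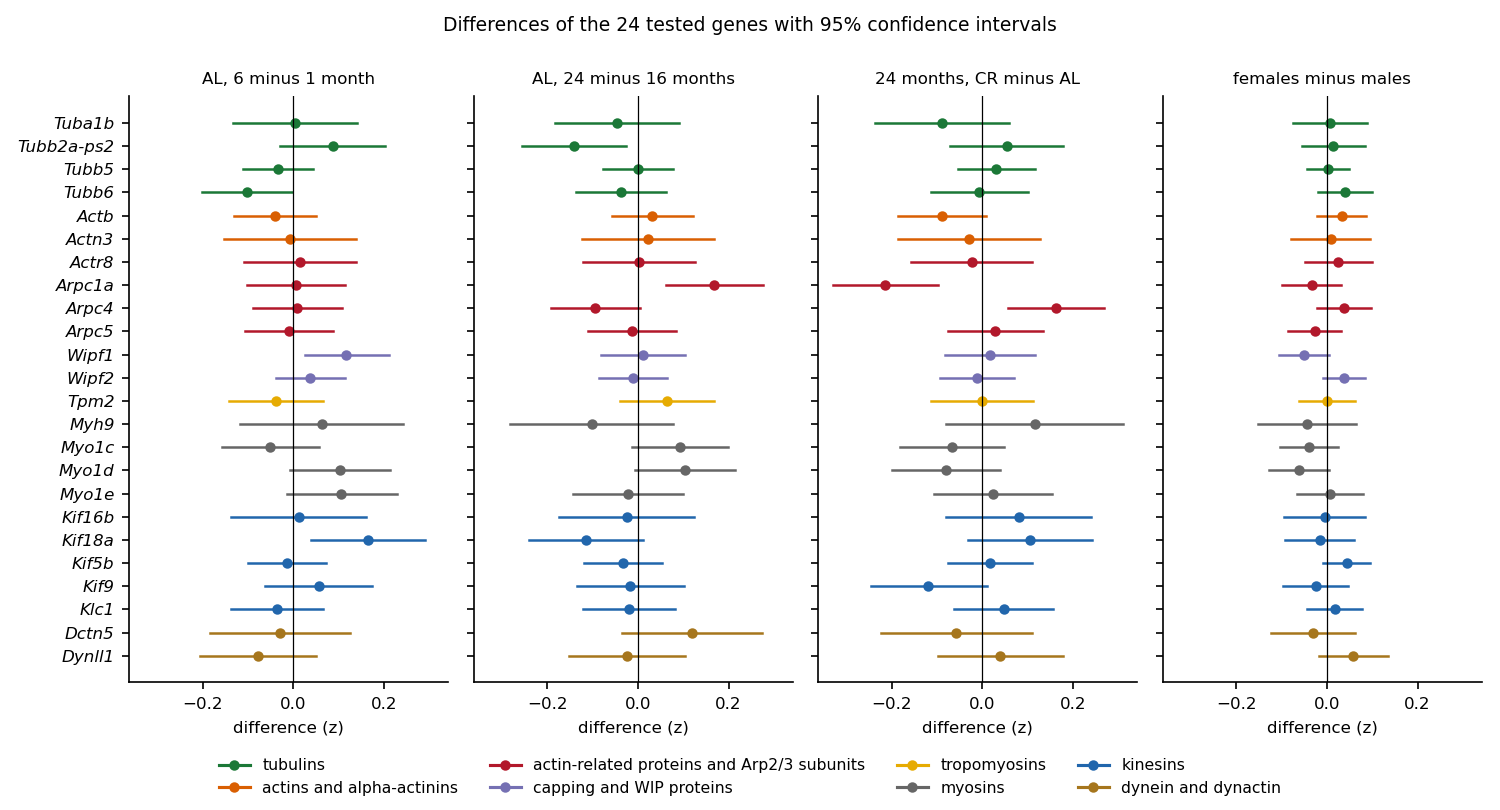
Differences of the 24 tested members (horizontal axis, z; points, with lines for the 95% confidence interval) in 4 comparisons, genes ordered and coloured by family. Arpc1a lies at 0.169 z from 16 to 24 months and at -0.214 z with restriction at 24 months, and Arpc4 on the other side of 0 in both.

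The 13 members with several spots showed how far a value depends on the spot. Over 39 pairs of spots of the same gene, the residuals across the 67 arrays, with groups and set taken out, had a median correlation of 0.167 and ran from -0.256 to 0.728, with 9 pairs below 0. The spots of Actb had the highest pair and also the lowest. Kif23, a motor of cytokinesis, had spots with means from -1.74 to 1.26 z, Actn1, a non-muscle alpha-actinin, from -2.40 to 0.103 z, and Tpm3 from -0.614 to 0.577 z, and the mean of each of these genes was below 0.

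At 24 months, the spots of some genes differed with restriction in opposite directions. Of 72 member spots 13 had an unadjusted p under 0.05 (11.2% of all 8448 spots), with no adjusted p under 0.05 among spots of mean z above 0. Spots of Actb at -0.148, -0.160 and -0.205 z were among them, while 2 of its 7 spots lay above 0. Actn1 had 0.208 z in 1 spot (unadjusted p = 0.00746) and -0.159 z in another (unadjusted p = 0.00601, limma). The pairs of spots of Arpc4, Arpc2, Tubb5, Myo1c and Myo10 had the same sign, and those of Arpc5, Kif5b, Wipf1 and Wipf2 did not. The difference of the 72 member spots had a Pearson's r of 0.304 with the mean difference of their class in this comparison, again as a description.

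**Figure D4:**
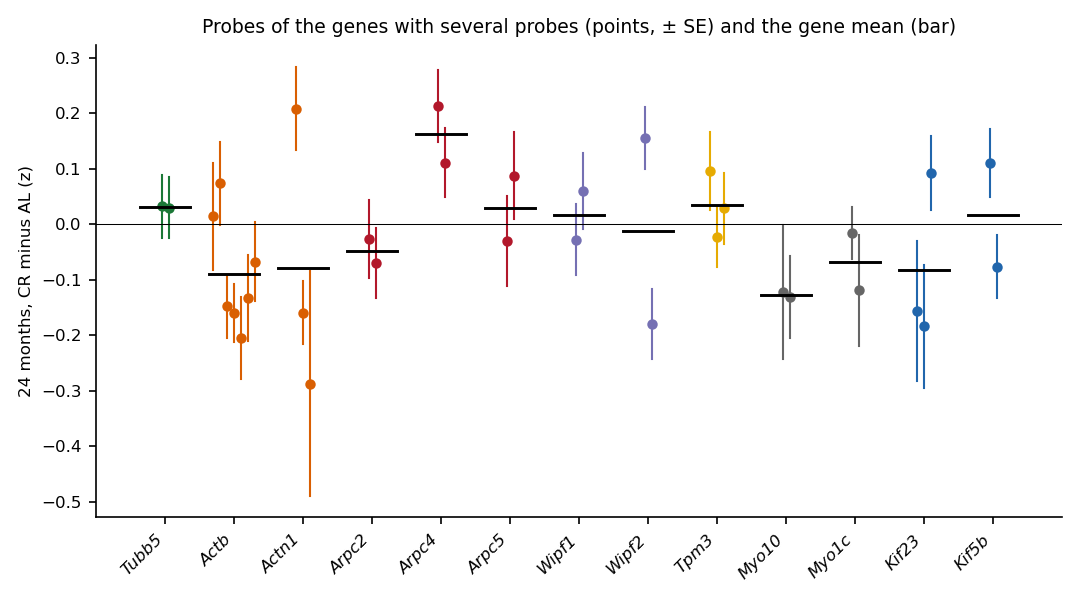
Difference between CR and AL mice of 24 months (vertical axis, z) for each spot of the 13 members with several spots (points with ± 1 SE) and for the mean of the gene (bar). Spots of Actn1, Wipf2 and Kif5b lie on both sides of 0, and the pairs of Arpc4 and Myo10 on the same side.

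Members of the same family varied together about as little as others. Over the 24 tested members the median residual correlation was 0.00522 for 31 pairs within a family, 0.0353 for 245 pairs between families and -0.00950 for pairs of all genes tested, across the same 67 arrays. The highest value was 0.735 for Dctn5 and Myo1c and the lowest -0.587 for Actn3 and Tubb6, neither pair of a single family. Arpc1b, the close relative of Arpc1a in the same complex, was a dim spot with a mean of -0.698 z. It differed by -0.0562 z with restriction at 24 months (unadjusted p = 0.328) and by 0.0430 z from 16 to 24 months (unadjusted p = 0.418).

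The 27 members with a mean z of 0 or below include genes of wide use in neurons and glia, among them Tubb2b, Actr3, Arpc2, Capza2, Myh10, Tpm1 and Tpm3. Fitted with no filter on dim genes, none passed an adjusted p of 0.05 in any of the 10 comparisons. From 16 to 24 months 4 of them had an unadjusted p under 0.05 (12.9% of 3905 genes). These were Kif2c, a kinesin that takes microtubules apart at -0.307 z, Dynlt3, a dynein light chain at -0.184 z, Actr3, the Arp3 subunit at 0.196 z, and Tpm4 at 0.182 z. With restriction at 24 months 4 did so as well (11.4% of genes), Kif2c at 0.271 z, Tpm4 at -0.238 z, Actr3 at -0.17 z and Dynll2 at 0.140 z. The AL mice of 24 months are shared by both. Kif2c had -1.77 z in array 67 against -1.06 to -0.330 z in the other 9 of these mice. Without that array its differences were -0.209 and 0.174 z and those of Tpm4 0.131 and -0.187 z. Dim spots lie nearer the background of the filter, so that their order says less about transcript levels.

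Myh10, the heavy chain of non-muscle myosin IIB, differed by -0.0800 z from 16 to 24 months and by -0.0803 z with restriction at 24 months. Tpm3, with 3 spots, had -0.0603 and 0.0341 z and Tpm1 -0.0340 and 0.00483 z. Arpc2 had -0.0495 and -0.0485 z and Capza2, which caps growing filament ends, 0.0200 and 0.0928 z. None of these 5 genes had an unadjusted p under 0.05 in either comparison. Beyond the members, 36 other cytoskeletal genes from a list of microtubule-associated, tubulin-folding, actin-binding and intermediate filament genes were on the array, and 17 were tested. Of these 0 passed the adjusted threshold in any of the 10 comparisons and between 0 and 2 had an unadjusted p under 0.05.

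The mice called 1 month old spanned the weeks in which the cortex matures, and their ages in days fell apart into 5 mice of 17 to 21 days, all in arrays 1 to 45, and 5 of 33 to 44 days, of which 3 were in that set. This split was made after values had been seen and no test was run on it. Within arrays 1 to 45, 2 of the 24 tested members did not overlap between the ages, beside 1.87% of all genes tested. Tuba1b was at 0.430, 0.460, 0.380, 0.470 and 0.340 z in the younger mice and at 0.290, 0.230 and 0.250 z in the older ones. Myo1e was at 1.26, 1.41, 1.39, 1.35 and 1.4 z and at 1.15, 1.14 and 1.2 z. Both were higher in the younger mice, as were 22 of the 31 genes without overlap among all genes tested. In the same arrays Tuba1b had a mean of 0.340 z in AL mice of 6 months, with values from 0.10 to 0.620. Tubb5 had means of 1.18 and 1.17 z and Actb of 0.814 and 0.769 z in the younger and the older mice of 1 month.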

How the data were processed

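The authors hybridised radiolabelled cDNA of each cortex to a mouse cDNA filter and deposited a score per spot, the z-score of the spot within its array. Whether intensities were logged first is not given in the sources used here. Genes carry the symbols of the platform annotation, which can be old. Of 8448 spots, 4788 had a single symbol, 212 several and 3448 none. The members and lists were chosen with earlier results of these data known.

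Limma 3.58.1 in R 4.3.3 was fitted to the mean of the spots of each gene, with a mean for each of the 14 groups of age, diet and sex and a term for the set of arrays (1 to 45, 46 to 67). Genes with a mean z above 0 over the 67 arrays were tested. Two-sided p-values were adjusted by Benjamini-Hochberg over the 1654 genes tested, with a threshold of 0.05, in 10 comparisons, sexes averaged with equal weight, and 3 interactions. Replicates are single mice. Members named were the 5 of smallest p in each comparison, 2 in each family, a list of well-known genes and those with 3 or more spots. Dim members, single spots and genes that illustrate a spread were named after their values were seen.

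Array 67, replicate 5 of the 24-month AL females, had a median correlation of 0.783 with the other arrays, where the next lowest had 0.885. Array 27, replicate 2 of the 24-month AL males, has a free-text description of a 1-month mouse, and its title and characteristics were followed. The scripts were tested on simulated data. Alternatives were no set term, the sets alone, other arrays in the fit, other filters, array weights, quantile normalization, a robust prior with a trend, centred spot classes, fits on spots, the z-ratio rule of the published methods, leaving out each array and, added after the data were seen, leaving out arrays 27 and 67. Python 3.11.15 with matplotlib 3.10.9 made the figures. Of the platform's probes no sequence was used here.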

Additional observations from a re-analysis of the deposited data

Results flagged for a closer look

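Across 168 sets of values (24 tested members in 7 classes of age and diet), 7 had a lowest array whose gap to the next, divided by the range of the class, was above Dixon's 95% critical value. That is 4.17% of the sets, and a threshold of this kind is passed by chance in about 1 in 20. Actr8 accounted for 3 of them, with a lowest value of -0.260 z in AL mice of 6 months (next 0.0900), -0.230 z in AL mice of 16 months (next 0.0800) and -0.120 z in AL mice of 24 months (next 0.06), the last in array 67. The others were Actb in CR mice of 16 months (0.391 z, next 0.749), Arpc4 in CR mice of 16 months (0.220 z, next 0.370), Wipf1 in AL mice of 1 month (0.405 z, next 0.695) and Wipf2 in AL mice of 24 months (0.490 z, next 0.605).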

How the results depend on the processing

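The count of 0 members past the adjusted threshold was found under every limma alternative run, leaving out each array included. The adjusted p of Arpc1a with restriction at 24 months came down to 0.0504 without replicate 3 of the CR females and to 0.0928 after quantile normalization, and that of Arpc4 to 0.0605 without replicate 1 of the CR males. Other settings raised these values. With no set term the smallest adjusted p over the 50 gene results was 0.729 (limma). It was 0.932 within arrays 1 to 45 alone and 0.494 within arrays 46 to 67 alone. The z-ratio rule, which adjusts nothing, called 1 member from 1 to 6 months (Kif18a, 0.162 z; 1.17% of genes) and 1 from 6 to 24 months (Tubb2a-ps2, -0.149 z; 1.34% of genes) in place of 0. It was not applied to the interactions. Of 524 values of 50 gene results under alternatives 514 kept their direction and 10 reversed, and in no case was the cause tested. With no set term Tubb5 came to 0.0107 z from 1 month to adult and 0.00150 z from 6 to 16 months. Within arrays 1 to 45 Dynll1 in females minus males came to -0.00278 z and Klc1 with restriction at 16 months to 0.0217 z. Within arrays 46 to 67 the values were -0.00750 z for Kif16b with restriction at 16 months, -0.00917 z for Kif9, 0.000833 z for Tubb6 and -0.0383 z for Wipf1 from 1 month to adult, and -0.0600 z for Myo1d and -0.00125 z for Wipf1 from 1 to 6 months. With no set term the genes under an unadjusted p of 0.05 went from 232 to 90 from 16 to 24 months and from 177 to 83 with restriction at 24 months. Leaving out each array in turn reversed none of 3350 values, and the counts of members past the adjusted threshold stayed at 0. Without array 67 the 2 genes past the adjusted threshold with restriction at 24 months went to 0 and the genes under an unadjusted p of 0.05 there from 177 to 100, while 2 members were under it as before. The members under an unadjusted p of 0.05 went from 2 to 1 for age by diet (102 to 74 of 1654 genes), from 1 to 3 for diet by sex (77 to 99 genes), from 2 to 4 from 1 month to adult (60 to 84 genes) and from 1 to 0 for restriction over 3 ages (79 to 76 genes), the last also without array 27 (82 genes). These alternatives on unadjusted p were chosen after seeing the data. Between the sets, members had the same sign in 29.2% to 66.7% of cases over the 10 comparisons, beside 45.5% to 63.7% of all genes.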
